A study of Mus musculus with 8 samples.

Results

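The genes described here encode heat shock proteins and their J-domain partners, the chaperones that fold, refold and sort other proteins. They were chosen by symbol: the HSP70 and HSP110 proteins (Hspa, Hsph), the cytosolic HSP90 proteins (Hsp90a), the mitochondrial chaperonin pair (Hspd, Hspe), the small heat shock proteins (Hspb) and the J proteins (Dnaja, Dnajb, Dnajc). Pseudogene symbols and 4 genes of the endoplasmic reticulum (Hspa5, Dnajb9, Dnajb11 and Dnajc3) were left out. The rule found 68 of the 41444 genes listed, and 51 of these were high enough to be tested. The choice used symbols alone and no measured value. Most of the proteins work in the cytosol, nucleus or mitochondria, but by textbook location 8 of the genes tested encode proteins of the endoplasmic reticulum, among them Hspa13, Dnajb12, Dnajb14 and Dnajc10.

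The study profiled RNA of macrophages grown in culture with the growth factor M-CSF from the bone marrow of wild-type C57BL/6 mice. SLIT2-treated cells received 6 nM SLIT2, a secreted ligand of ROBO receptors known from axon guidance, for 16 hours (n = 4 libraries), and the others received vehicle (n = 4 libraries). The labels give neither the sex nor the age of the mice, and they do not say whether the 4 libraries of a group came from separate cultures or animals. The p-values below therefore measure only the spread between these libraries, which may be technical. Values are rlog (regularised log) expression on a log2 scale, a transform that shrinks differences, most of all those of weakly expressed genes. The number of reads behind each value is unknown, so no counting interval can be given.

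HSP70 proteins bind unfolded stretches of other proteins and release them in a cycle driven by ATP. J proteins bring client proteins to HSP70 and speed up its ATP hydrolysis, and HSP110 proteins reset it by exchanging the nucleotide. HSP90 acts later, on kinases, receptors and transcription factors that are nearly folded, including many that macrophages use for signalling. In the mitochondrial matrix, mortalin (Hspa9) pulls in and folds imported proteins, and HSP60 with its lid HSP10 encloses them in a chamber. When unfolded proteins build up in the cytosol, the transcription factor HSF1 switches on a small set of these genes through heat shock elements, which are inverted repeats of the letters GAA.

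The libraries differed by treatment and, in both groups, by replicate number: replicates 3 and 4 stood apart from replicates 1 and 2. Over all genes tested, the replicate sets accounted for 46.7% of the sum of squares and treatment for 37.3%. The RNA Yam1 alone made up 0.602 to 1.80% of the summed linear values in SLIT2 libraries and 1.94 to 4.99% in vehicle libraries. The 8 macrophage markers were all expressed, at a summed level of 18.98 to 19.52 (log2) in SLIT2 libraries and 19.03 to 19.53 in vehicle libraries. Neutrophil markers, of which 2 of 8 were high enough to be tested and Ly6g was listed at 0, summed to 11.85 to 12.22 in SLIT2 libraries and 11.22 to 11.45 in vehicle libraries. Csf3r carried nearly all of that sum (11.83 to 12.21 in SLIT2 libraries and 11.19 to 11.43 in vehicle libraries), whereas S100a8 averaged 4.81 in SLIT2 libraries and 4.97 in vehicle libraries, and S100a9 3.36 in SLIT2 libraries and 3.62 in vehicle libraries. The 7 erythroid and megakaryocyte markers, of which 2 were tested, summed to 9.96 to 12.31 in SLIT2 libraries and 9.06 to 10.53 in vehicle libraries. The 5 mast cell and basophil markers, of which 4 were listed at 0, summed to 4.79 to 5.18 and 5.21 to 5.68 in the same groups, and B cell markers to 4.74 to 4.76 and 4.71 to 4.78. The part of Yam1 and of these cell types in the results was not tested. In bulk RNA, fewer cells of a type and less RNA per cell cannot be told apart.

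Few of the chaperone genes passed the test for SLIT2 against vehicle. With limma and Benjamini-Hochberg adjustment over all 11851 genes tested, 6 of 51 chaperone genes (11.8%) passed an adjusted p of 0.05, of which 3 rose and 3 fell. Across all genes tested, 13.3% passed (6.76% higher and 6.58% lower), so the share among chaperones was close to the background. Dnajb5, Dnajc13 and Hspa14 rose, and Dnajb4, Dnajc27 and Hsp90ab1 fell. The median difference over the 51 genes was 0.00, against 0.0025 over all genes tested, and the median size of difference was 0.0675 on the log2 scale, against 0.1125 over all genes tested. The differences of 42 of the 51 genes lay within 0.2 in either direction. In 9 of the 51 (17.6%) the 4 SLIT2 values and the 4 vehicle values did not overlap, against 20.5% of all genes tested. Together the chaperone genes took 0.60 to 0.632% of the summed linear values in SLIT2 libraries and 0.598 to 0.620% in vehicle libraries. With Yam1 left out of the sum, their share was 0.611 to 0.636% in SLIT2 libraries and 0.624 to 0.635% in vehicle libraries.

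These calls depended on how the replicates were treated. With the replicate number as a block, 13 of the 51 passed (6 higher and 7 lower), against 33.0% of all genes tested. With replicates 1 and 2 averaged to a single value, and likewise replicates 3 and 4, 0 of the 51 passed, against 5.81% of all genes tested. In that last limma fit 12 of the 51 (23.5%) had an unadjusted p under 0.05, against 29.4% of all genes tested, and the smallest adjusted p was 0.0598, for Dnajb5.

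**Figure D1:**
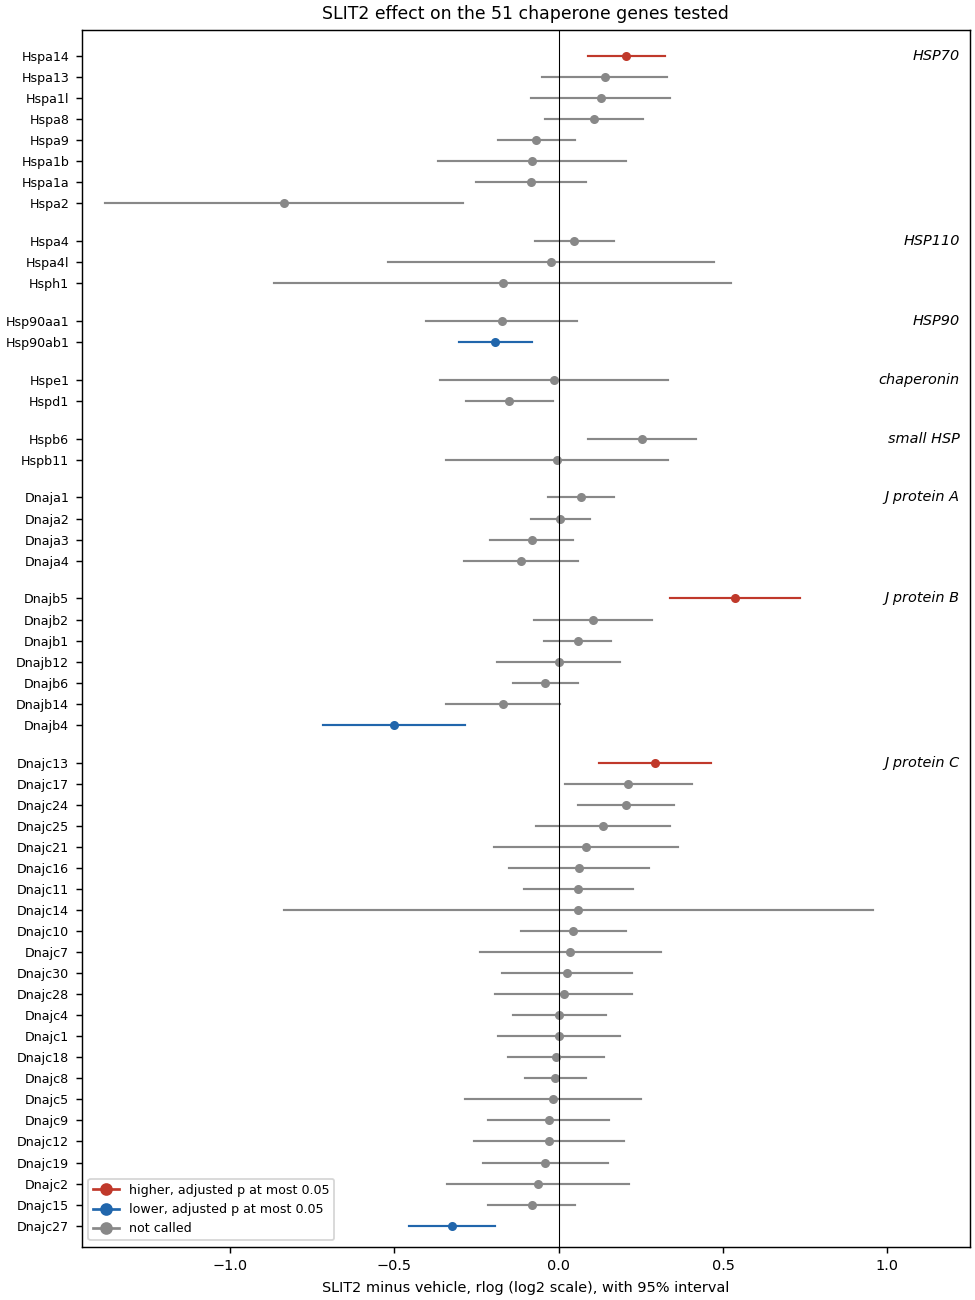
SLIT2 minus vehicle difference of each of the 51 chaperone genes tested, in rlog units (log2 scale), grouped by protein class, with the 95% interval from limma; red marks genes called higher, blue genes called lower and grey genes not called. The 3 genes called higher and the 3 called lower come from 4 classes, and 42 of the 51 points lie within 0.2 of zero.

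The 2 widest called differences belonged to close relatives of the classical HSP40 and went in opposite directions. Dnajb5 encodes a B-class J protein that works with HSP70 (ENSMUSG00000036052, chromosome 4, 42949814 to 42959425, plus strand, GENCODE M21 on GRCm38). Its rlog values were 9.64, 9.71, 9.45 and 9.35 in SLIT2 replicates 1 to 4, against 9.08, 8.99, 8.93 and 9.0 in vehicle replicates 1 to 4. Every SLIT2 library lay above every vehicle library, and SLIT2 replicates 1 and 2 were the highest. Dnajb5 rose by 0.54 (SE 0.086, limma adjusted p = 0.00496), with group means of 9.54 ± 0.17 in SLIT2 libraries and 9.0 ± 0.062 in vehicle libraries (SD, n = 4 each).

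Dnajb4, another B-class J protein (ENSMUSG00000028035, chromosome 3, 152178511 to 152210302, minus strand), had rlog values of 9.86, 9.65, 9.69 and 9.76 in SLIT2 libraries, against 10.37, 10.42, 10.07 and 10.10 in vehicle libraries. The groups did not overlap, and vehicle replicates 1 and 2 stood above vehicle replicates 3 and 4. Dnajb4 fell by 0.50 (SE 0.094, limma adjusted p = 0.0102). The third member of this trio, Dnajb1, which encodes HSP40 itself and is heat-inducible, had rlog values of 10.16, 10.18, 10.08 and 10.07 in SLIT2 libraries, against 10.10, 10.07, 10.04 and 10.05 in vehicle libraries. Its groups overlapped, and the difference of 0.06 (95% interval -0.045 to 0.16) did not pass the test (limma adjusted p = 0.484). The coding sequences of the trio are 61.3 to 62.6% identical by pair, counted on the longest open reading frame of the principal transcript. Per transcript length (rlog minus log2 of the length in kb), Dnajb5 stood at 7.81 in SLIT2 libraries and 7.28 in vehicle libraries, and Dnajb4 at 8.44 in SLIT2 libraries and 8.94 in vehicle libraries, so Dnajb4 was the higher of the pair in both groups.

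The other J proteins that passed the test act away from the folding cycle. Dnajc27 (ENSMUSG00000020657, chromosome 12, 4082583 to 4110606, plus strand) encodes RBJ, a small GTPase-like protein with a J domain. It had rlog values of 7.64, 7.72, 7.64 and 7.76 in SLIT2 libraries, against 8.05, 8.02, 8.0 and 7.99 in vehicle libraries. The groups were tight and separate. Dnajc27 fell by 0.325 (SE 0.057, limma adjusted p = 0.00755).

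Dnajc13 (ENSMUSG00000032560, chromosome 9, 104151282 to 104262930, minus strand) encodes RME-8, a J protein of endosomes that recruits HSC70 in receptor sorting. The values were 12.33, 12.35, 12.32 and 12.44 in SLIT2 libraries, against 12.21, 12.18, 11.94 and 11.94 in vehicle libraries. The SLIT2 values lay together, whereas the vehicle values fell into a higher pair, replicates 1 and 2, and a lower pair, replicates 3 and 4. Dnajc13 rose by 0.29 (SE 0.074, limma adjusted p = 0.0362). Replicates 3 and 4 alone gave 0.44 and replicates 1 and 2 alone gave 0.145, and the gap of 0.295 between these differences passed a limma interaction test (adjusted p = 0.0282), which rests on the spread within pairs of libraries. It was the only chaperone gene of 51 to pass that test in this fit, against 4.40% of all genes tested, and with no mean-variance trend or with no filter on low values 0 of the chaperone genes passed.

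Among the core chaperones, 1 HSP90 gene fell and 1 HSP70 gene rose, both by small amounts. Hsp90ab1 encodes the constitutive cytosolic HSP90 beta (ENSMUSG00000023944, chromosome 17, 45567775 to 45573271, minus strand). Its rlog values were 14.76, 14.77, 14.69 and 14.72 in SLIT2 libraries, against 14.98, 14.97, 14.83 and 14.93 in vehicle libraries. Every SLIT2 library lay below every vehicle library. Hsp90ab1 fell by 0.19 (SE 0.049, limma adjusted p = 0.0358).

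Hsp90aa1, the heat-inducible HSP90 alpha, had rlog values of 13.50, 13.54, 13.86 and 13.87 in SLIT2 libraries, against 13.73, 13.86, 13.94 and 13.93 in vehicle libraries. SLIT2 replicates 1 and 2 were the lowest, and SLIT2 replicates 3 and 4 overlapped the vehicle libraries. The difference of -0.17 (95% interval -0.40 to 0.06) did not pass the test (limma adjusted p = 0.332). With the replicate block it passed (adjusted p = 0.0396, range over all alternatives 0.00729 to 1.00). The coding sequences of the HSP90 pair are 75.4% identical.

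Hspa14 encodes an HSP70 that works at ribosomes (ENSMUSG00000051396, chromosome 2, 3504527 to 3512790, minus strand). The rlog values were 10.43, 10.48, 10.56 and 10.52 in SLIT2 libraries, against 10.25, 10.23, 10.31 and 10.38 in vehicle libraries. The groups did not overlap, by a margin smaller than the SD of either. Hspa14 rose by 0.205 (SE 0.051, limma adjusted p = 0.0342), a call lost under quantile normalization and under median centring. GENCODE M21 gives this identifier the name Gm45902 and places its own Hspa14 on the same strand with 321 shared exonic bases, so reads of these genes may not be separable, and the other identifier was not analysed here.

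Leaving out 1 library kept the calls of Dnajb5, Dnajb4 and Dnajc27 in all 8 cases. Hspa14 lost its call without SLIT2 replicate 2, 3 or 4 or vehicle replicate 1, 2 or 3 (adjusted p 0.0308 to 0.0916 over the 8 cases). Hsp90ab1 lost its call without any 1 of the SLIT2 replicates or vehicle replicate 1, 2 or 4 (0.0266 to 0.0962). Dnajc13 lost its call without any 1 of the SLIT2 replicates or vehicle replicate 3 or 4 (0.0279 to 0.0882).

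**Figure D2:**
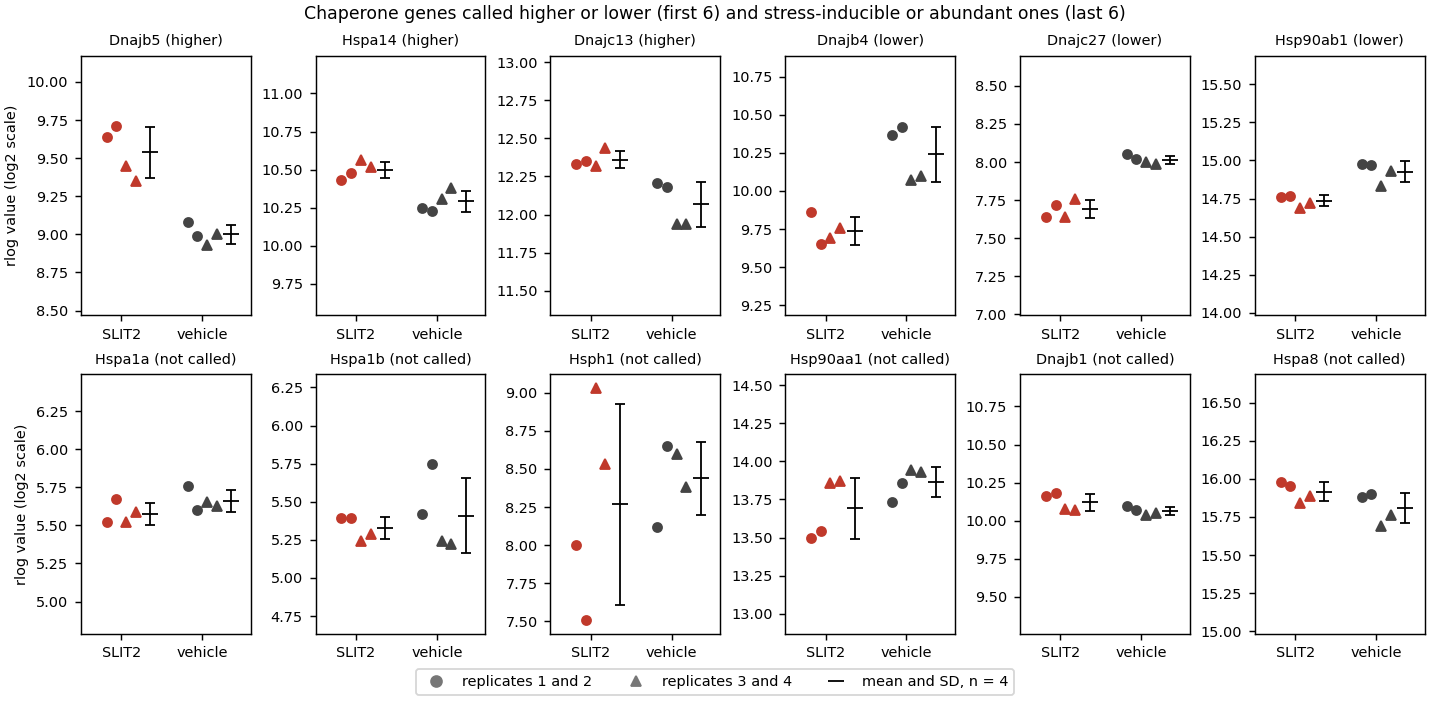
rlog value (log2 scale) of 12 chaperone genes in each library, SLIT2 left and vehicle right in each panel, with circles for replicates 1 and 2, triangles for replicates 3 and 4, and the mean and SD (n = 4) beside the points; the panels differ in level but span a similar height. In the 6 genes of the upper row the groups do not overlap, whereas in the lower row they overlap, and Hsph1 runs from 7.51 to 9.03 within the SLIT2 group alone.

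A short list of 5 heat-inducible genes, picked by hand, showed no called difference. Of these genes (Hspa1a, Hspa1b, Hsph1, Hsp90aa1 and Dnajb1), 0 passed in the limma fit and 0 had an unadjusted p under 0.05. Over all genes tested 26.3% had such a p. With the replicate block 1, Hsp90aa1, passed. With 5 genes and these background shares, a count of 0 says little about the group. The counts also depend on which genes were picked. Hspb1, described below as heat-inducible, was too low to be tested. Hspd1 and Hspe1, whose promoter windows hold inverted GAA repeats (below), were not counted. Their unadjusted limma p was 0.030 for Hspd1 and 0.923 for Hspe1. Hspa1a, 1 of the paired genes for inducible HSP70, had rlog values of 5.52, 5.67, 5.52 and 5.59 in SLIT2 libraries, against 5.76, 5.6, 5.65 and 5.63 in vehicle libraries. Its neighbour Hspa1b had 5.39, 5.39, 5.24 and 5.29 in SLIT2 libraries, against 5.42, 5.75, 5.24 and 5.22 in vehicle libraries. Both genes were low and overlapping in the 2 groups, and vehicle replicate 2 was the highest library for Hspa1b. Their differences were -0.085 (95% interval -0.25 to 0.08) for Hspa1a and -0.08 (95% interval -0.37 to 0.21) for Hspa1b, with limma adjusted p of 0.531 and 0.761. The coding sequences of Hspa1a and Hspa1b share 1918 identical bases (99.4%), so reads may have been split between them, and 564 exonic bases of Hspa1a lie opposite another gene, Gm20481.

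Hsph1, which encodes the inducible HSP110, had the widest interval of the 51 genes after Dnajc14. Its rlog values were 8.0, 7.51, 9.03 and 8.53 in SLIT2 libraries, against 8.12, 8.65, 8.60 and 8.38 in vehicle libraries. SLIT2 replicate 2 was the lowest library and SLIT2 replicate 3 the highest, with all vehicle libraries between them. The difference of -0.17 had a 95% interval from -0.86 to 0.52 (limma adjusted p = 0.796), so changes of that size could not be detected. In replicates 3 and 4 alone it was 0.29, against -0.63 in replicates 1 and 2 alone. The transcription factor gene Hsf1 itself had 6.37, 6.19, 6.01 and 5.02 in SLIT2 libraries, against 6.36, 5.74, 5.93 and 6.26 in vehicle libraries, a difference of -0.175 (limma adjusted p = 0.780) that rested on the low SLIT2 replicate 4 and was 0.12 without it.

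Promoter sequence was compared for 53 of the 68 genes, with 70 windows from RefSeq on GRCm38.p6 that run from 250 bases before to 50 bases after an annotated start. The motif searched was a pair of inverted GAA units, GAANNTTC or TTCNNGAA, each of which reads the same on both strands. A triplet, GAANNTTCNNGAA or its reverse complement TTCNNGAANNTTC, was also searched on both strands, and overlapping matches were counted. At least 1 pair was present for 16 of the 53 genes (30.2%), against 17.0% of the 27025 genes with a window. By window it was 18 of 70, against 15.1% of all 32851 windows. Some of these matches are shared: Hspa1a and Hspa1b hold the same pair in nearly identical windows, and Hspd1 and Hspe1 share a run of pairs. The windows of the heat-inducible Dnajb1 held 0 pairs, and no window was used for Hsp90aa1, Hspa8 or Hspa9. A triplet was present for 4 genes (Dnajb6, Hspd1, Hspe1 and Hsph1; 7.55%), against 0.662% of genes with a window, and by window for 6 of 70, against 0.603% of all windows. The 6 windows hold 3 distinct sites, since Hspd1 and Hspe1 share 1, the 2 Dnajb6 windows share 1 and the 2 Hsph1 windows share 1. None of these 4 genes passed the test for SLIT2 against vehicle. Of the 6 called genes, Dnajb4 and Dnajc27 held 1 pair each, in Dnajb4 in 1 of its 2 windows, the windows of Dnajb5, Dnajc13 and Hspa14 held 0, and no window was used for Hsp90ab1. A match is a string of letters and not a mapped binding site, and its absence says only that these letters are not in the window. The windows printed are those of the inducible Hspa1b, the called genes with a match, and Hspd1, which was picked after the matches were counted because 1 of its 2 windows holds 3 overlapping pairs and 2 triplets. Each is written 5′ to 3′ on the gene's own strand, with the matched letters in capitals.
The Hspa1b window lies at chr17:34959189-34959488 on the minus strand.
Hspa1b promoter window: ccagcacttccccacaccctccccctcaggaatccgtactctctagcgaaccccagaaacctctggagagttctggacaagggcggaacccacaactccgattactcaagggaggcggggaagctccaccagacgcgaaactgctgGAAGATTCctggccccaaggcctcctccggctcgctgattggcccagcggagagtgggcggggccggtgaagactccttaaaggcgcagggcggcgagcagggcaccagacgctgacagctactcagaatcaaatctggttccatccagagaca
The Dnajb4 window lies at chr3:152193796-152194095 on the minus strand.
Dnajb4 promoter window: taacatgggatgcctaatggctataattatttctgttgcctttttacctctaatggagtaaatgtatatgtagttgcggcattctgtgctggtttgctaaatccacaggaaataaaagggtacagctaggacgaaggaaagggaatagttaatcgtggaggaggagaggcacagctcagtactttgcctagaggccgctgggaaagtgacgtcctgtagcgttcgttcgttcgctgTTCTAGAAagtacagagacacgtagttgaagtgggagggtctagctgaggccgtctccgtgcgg
The Dnajc27 window lies at chr12:4082324-4082623 on the plus strand.
Dnajc27 promoter window: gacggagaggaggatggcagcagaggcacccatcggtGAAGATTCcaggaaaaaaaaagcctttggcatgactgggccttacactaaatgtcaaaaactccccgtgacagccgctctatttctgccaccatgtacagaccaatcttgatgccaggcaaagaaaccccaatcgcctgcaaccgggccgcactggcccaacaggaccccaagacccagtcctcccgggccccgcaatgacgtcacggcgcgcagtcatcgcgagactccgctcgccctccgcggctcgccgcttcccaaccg
The Hspd1 window lies at chr1:55087883-55088182 on the minus strand.
Hspd1 promoter window: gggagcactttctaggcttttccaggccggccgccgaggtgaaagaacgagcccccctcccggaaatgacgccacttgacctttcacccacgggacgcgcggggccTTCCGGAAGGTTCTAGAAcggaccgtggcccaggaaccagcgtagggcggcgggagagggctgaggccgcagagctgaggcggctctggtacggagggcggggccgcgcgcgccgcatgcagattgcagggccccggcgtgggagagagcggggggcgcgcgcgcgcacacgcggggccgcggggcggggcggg
The Hspd1 run of capitals also falls in the window of Hspe1, which is read the other way (chr1:55087898-55088197, plus strand), since these genes share a start region.

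The constitutive HSP70 and its exchange factors did not pass the test. Hspa8 encodes HSC70, the housekeeping HSP70, and had the highest level per transcript length of the chaperone genes in both groups, at 14.66 in SLIT2 libraries and 14.55 in vehicle libraries (rlog minus log2 of the length in kb). Its rlog values were 15.98, 15.95, 15.84 and 15.89 in SLIT2 libraries, against 15.88, 15.90, 15.69 and 15.76 in vehicle libraries. Within each replicate set both SLIT2 libraries lay above both vehicle libraries, but the groups overlapped. The difference of 0.11 (95% interval -0.04 to 0.26) did not pass (limma adjusted p = 0.347), nor with the replicate number as a block (0.0558), but did with the replicate set as a block (0.0258, range over all alternatives 0.0258 to 1.00). Hspa4, an HSP110 protein that exchanges nucleotide on HSC70, had 13.01, 13.07, 12.92 and 12.93 in SLIT2 libraries, against 12.94, 13.02, 12.85 and 12.93 in vehicle libraries, and did not pass either (difference 0.05, adjusted p = 0.648). Over the classes, 1 of 8 HSP70 genes tested rose and 0 fell, 0 of 3 HSP110 genes passed, and 1 of the 2 HSP90 genes fell. Across all genes tested 6.76% were higher and 6.58% lower, so counts in classes this small say little.

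Hspa2, an HSP70 best known from testis, had the widest difference of any chaperone gene without passing. It had rlog values of 3.62, 3.60, 3.60 and 3.60 in SLIT2 libraries, against 3.66, 4.52, 4.78 and 4.80 in vehicle libraries. The SLIT2 libraries lay together with vehicle replicate 1 at the low end, and the gene reached the minimum mean of 4 only through the other vehicle libraries. The difference was -0.835 (SE 0.24, limma adjusted p = 0.0539). Hspb6, which encodes the small heat shock protein HSP20, had 6.85, 6.76, 6.70 and 6.83 in SLIT2 libraries, against 6.51, 6.65, 6.47 and 6.50 in vehicle libraries. Its groups did not overlap, and the difference of 0.25 (SE 0.071) missed the threshold narrowly (limma adjusted p = 0.0535). These values, and those of Hspa13, Dnajb14 and Dnajc24 below, are given because they lay closest to the threshold or passed with the replicate block, a choice made after they were seen.

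The mitochondrial chaperones showed no called difference, although Hspd1 was lower in SLIT2 libraries within each replicate set. Hspd1, which encodes HSP60, had rlog values of 12.47, 12.53, 12.57 and 12.63 in SLIT2 libraries, against 12.62, 12.67, 12.68 and 12.83 in vehicle libraries. Within each replicate set both SLIT2 libraries lay below both vehicle libraries, and the groups overlapped at their edge. The difference of -0.15 (95% interval -0.28 to -0.02) did not pass (limma adjusted p = 0.139) but did with the replicate block (adjusted p = 0.00718, range over all alternatives 0.0072 to 1.00). Hspe1, its partner HSP10, had 11.16, 11.18, 11.52 and 11.53 in SLIT2 libraries, against 11.10, 11.15, 11.55 and 11.65 in vehicle libraries. For Hspe1 both groups split by replicate set and not by treatment, and the difference was -0.015 (adjusted p = 0.968). The 2 genes share 112 exonic bases on opposite strands.

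Hspa9, the matrix HSP70 mortalin, had rlog values of 13.03, 13.10, 13.11 and 13.10 in SLIT2 libraries, against 13.07, 13.12, 13.15 and 13.27 in vehicle libraries. The groups overlapped, and the difference of -0.07 did not pass (limma adjusted p = 0.464). Of the 8 mitochondrial members tested, 0 passed in the limma fit, 1 had an unadjusted p under 0.05 and 1, Hspd1, passed with the replicate block. Over all genes tested these shares were 13.3%, 26.3% and 33.0%, so the counts in 8 genes say little. In a wider list of 23 genes for mitochondrial protein import and quality control, 0 rose and 1 fell, with a median of -0.02. With the replicate block 1 of the 23 was higher and 3 were lower, beside the same all-gene shares of 13.3% and 33.0%. The gene that fell was Tomm70a, an import receptor that takes precursors from HSP70 and HSP90, by 0.155 (SE 0.037, limma adjusted p = 0.0284). Its call was lost with averaged duplicates (0.125) and without any 1 of the SLIT2 replicates or vehicle replicate 1, 2 or 3 (0.044 to 0.0815 over the 8 cases). Atf5, a stress-responsive transcription factor named after its values were seen, had the widest difference of the list, at 0.42 (SE 0.27, limma adjusted p = 0.395). It passed with the replicate block (0.0151) and was the only gene of the 23 to pass with averaged duplicates (0.0383). Over all genes tested 5.81% passed with averaged duplicates, so 1 of 23 lies near that share.

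The general J proteins did not pass the test. Dnaja1, a major cytosolic partner of HSC70, had rlog values of 12.63, 12.71, 12.56 and 12.59 in SLIT2 libraries, against 12.54, 12.59, 12.52 and 12.57 in vehicle libraries. Dnajb6, which keeps proteins from aggregating, had 12.48, 12.54, 12.50 and 12.46 in SLIT2 libraries, against 12.47, 12.51, 12.54 and 12.62 in vehicle libraries. Dnajc5, the cysteine string protein of secretory vesicles, had 12.49, 12.48, 12.17 and 12.14 in SLIT2 libraries, against 12.50, 12.49, 12.20 and 12.16 in vehicle libraries. All 3 overlapped between the groups, and Dnajc5 followed the replicate set almost exactly. Their differences were 0.07, -0.04 and -0.02, with limma adjusted p of 0.390, 0.642 and 0.949.

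Over all J proteins, 2 of 34 tested rose and 2 fell, with a median difference of 0.00, against 1 up and 1 down of the 17 other chaperone genes tested. Across all genes tested 6.76% were higher and 6.58% lower, and these counts lie near those shares. The 4 A-class genes ran from -0.115 to 0.07, the 7 B-class genes from -0.50 to 0.54 and the 23 C-class genes from -0.325 to 0.29. Dnajc24, a cofactor of diphthamide synthesis, averaged 8.24 ± 0.026 in SLIT2 libraries and 8.03 ± 0.094 in vehicle libraries (SD, n = 4 each), and its groups did not overlap, but the difference of 0.205 did not pass (limma adjusted p = 0.0751). Dnajc14 had the widest interval of the 51 genes, from -0.83 to 0.95, with values of 6.97, 6.82, 8.18 and 8.14 in SLIT2 libraries, against 7.40, 7.85, 7.88 and 6.74 in vehicle libraries. An opposite-strand gene, Ormdl2, covers 1114 of its exonic bases, and the strand setting of the counting was not stated.

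**Figure D3:**
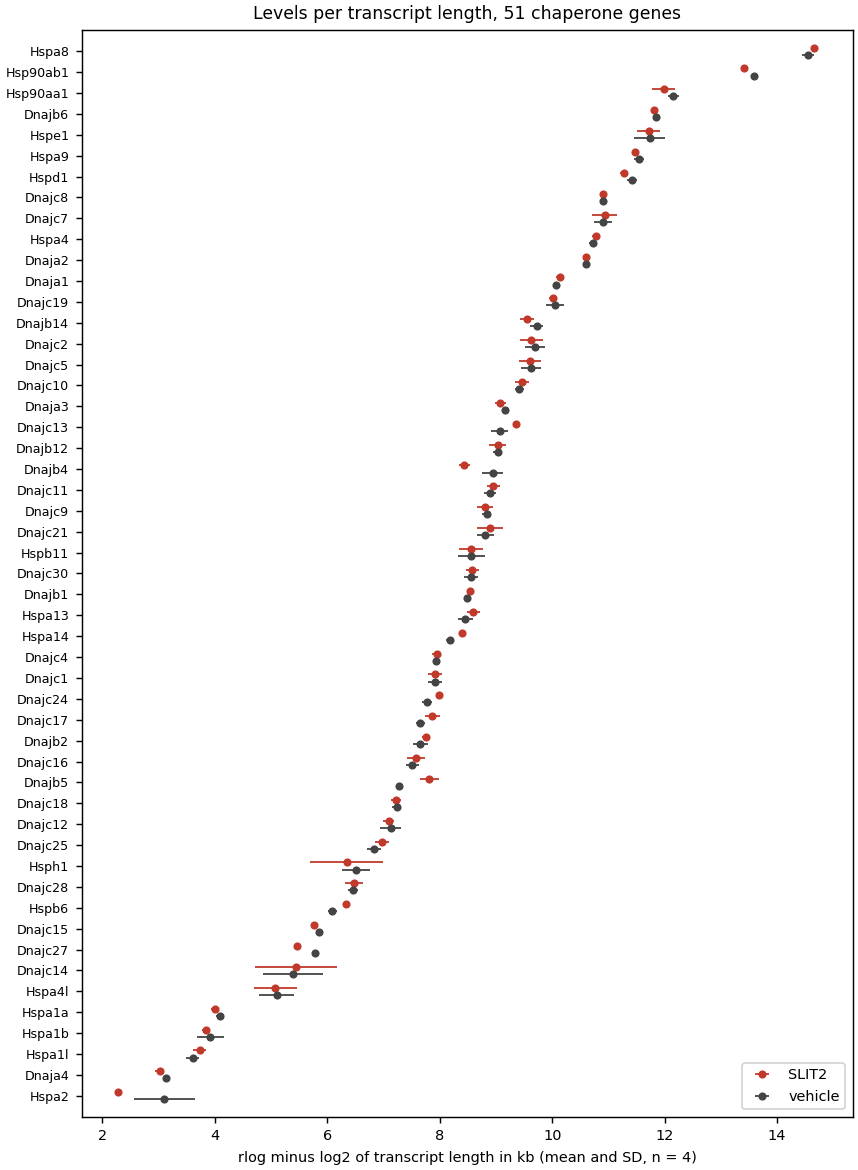
Level per transcript length of the 51 chaperone genes tested (rlog minus log2 of the principal transcript's length in kb, mean and SD, n = 4), SLIT2 in red above vehicle in black for each gene, ordered by the vehicle mean. Hspa8 and Hsp90ab1 lead in both groups, and the inducible Hspa1a and Hspa1b, between which reads may have been split, lie near the bottom.

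The order of levels per transcript length did not follow inducibility: heat-inducible Hsp90aa1 stood near the top, and Hspa1a and Hspa1b near the bottom. After Hspa8 came Hsp90ab1, at 13.40 in SLIT2 libraries and 13.59 in vehicle libraries, and Hsp90aa1, at 11.98 in SLIT2 libraries and 12.15 in vehicle libraries. Dnajb6, Hspe1, Hspa9 and Hspd1 followed, from 11.27 to 11.81 in SLIT2 libraries and from 11.42 to 11.85 in vehicle libraries, steps that are partly within the SD of Hspe1 in either group (0.21 in SLIT2 libraries and 0.28 in vehicle libraries). Hspa1a and Hspa1b stood at 4.01 and 3.84 in SLIT2 libraries and at 4.09 and 3.92 in vehicle libraries. Their coding sequences are nearly identical, so reads may have been split between them and their levels may read too low. The lowest was Hspa2, at 2.27 in SLIT2 libraries and 3.10 in vehicle libraries. These are shrunken log values, so the distances between low and high genes are not exact.

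The 17 genes not tested had a mean rlog under 4. Among them 5 were listed at 0 in every library (Dnajb8, Dnajc5b, Dnajc5g, Hspb2 and Hspb3), and Dnajc22 held a single value below 0 in every library. Hspb1, the small heat shock protein HSP25, which is heat-inducible in many cells, had 1.85, 1.84, 2.02 and 1.98 in SLIT2 libraries, against 1.85, 1.95, 1.90 and 2.09 in vehicle libraries. Its groups overlapped at a low level. Dnajb13, a gene of ciliary axonemes, came closest to the minimum, with 3.49 to 3.89 in SLIT2 libraries and 3.37 to 3.73 in vehicle libraries. A second row named Dnajc19 ranged from 2.29 to 2.63 in SLIT2 libraries and from 2.29 to 2.60 in vehicle libraries. The remaining 8 (Hspb7, Hspb8, Hspb9, Hspa12a, Hspa12b, Dnajb3, Dnajb7 and Dnajc6) lay between -1.46 and 0.60 in every library.

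Most chaperone genes differed more by replicate set than by treatment, as did most of all genes tested. The difference between replicates 3 and 4 and replicates 1 and 2 was wider than that between treatments in 33 of the 51 genes, and in 7070 of the 11851 genes tested. With limma, 26 of the 51 (51.0%) passed for the set difference, 13 higher and 13 lower in replicates 3 and 4, against 57.0% of all genes tested (25.8% higher and 31.2% lower). The split became 19 higher and 9 lower under quantile normalization and 18 higher and 9 lower under median centring. The median size of the set difference was 0.145, against 0.165 over all genes tested. The labels do not say what the replicate numbers mark.

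The widest called set differences lay in genes with no SLIT2 call. Hspa4l, an HSP110 protein, averaged 8.04 ± 0.099 in replicates 3 and 4 and 8.63 ± 0.022 in replicates 1 and 2 (SD, n = 4 libraries each, both treatments), a difference of -0.59 (SE 0.058, limma adjusted p = 5.6e-05). Hspe1 averaged 11.56 ± 0.060 in replicates 3 and 4 and 11.15 ± 0.034 in replicates 1 and 2, a difference of 0.415 (SE 0.035, limma adjusted p = 2.7e-05). Hspb11, which carries a small heat shock protein symbol but encodes the intraflagellar transport protein IFT25, differed by 0.38, Dnajc2 of the ribosome by 0.33, Dnajc7, a partner of HSP70 and HSP90, by 0.32, Dnajc21 of ribosome assembly by 0.30 and Dnajc5 by -0.32. The sets did not overlap in any of these 7 genes, which follows largely from picking them for wide set differences. None of the 7 passed for SLIT2 against vehicle, but 45 of the 51 did not pass either. A wide set difference also widens the spread in that fit, which has treatment as its only term. The missing calls therefore say nothing further about these 7 genes. Hsph1 differed by 0.565 between the sets and missed the threshold (limma adjusted p = 0.0569).

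**Figure D4:**
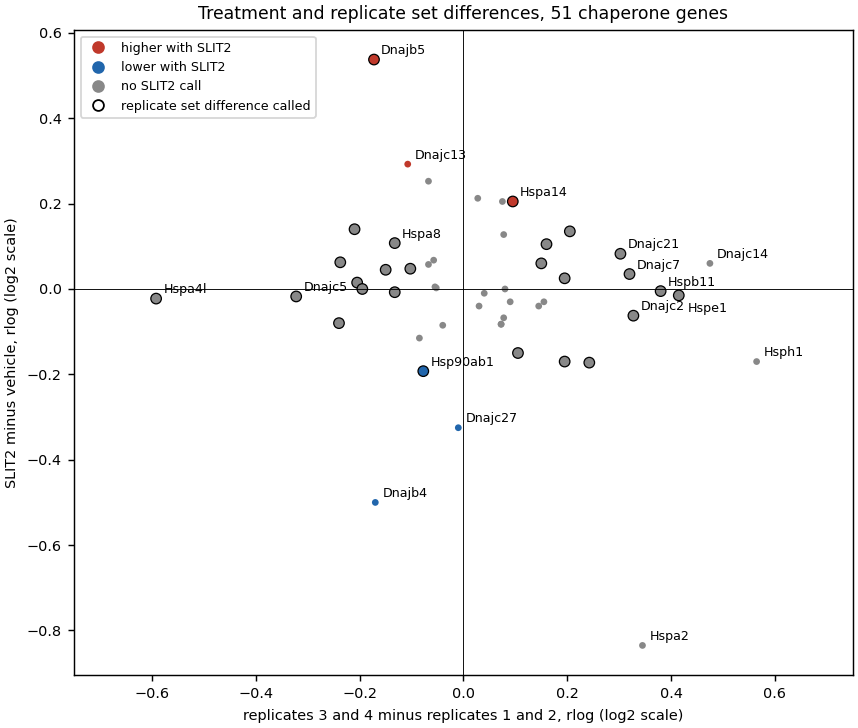
SLIT2 minus vehicle difference (vertical) against the difference of replicates 3 and 4 minus replicates 1 and 2 (horizontal) for the 51 chaperone genes tested, both in rlog units (log2 scale); colour marks the SLIT2 call and a black ring a called set difference. Most points spread along the horizontal axis, with Hspa4l at -0.59 and Hspe1 at 0.415, while Dnajb5 and Dnajb4 lie away from it at 0.54 and -0.50.

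Few genes for partners of the chaperones passed the test. In a list of HSF factors and HSP70 or HSP90 co-chaperones, 1 of 38 genes tested rose and 0 fell, with a median of -0.01, and with the replicate block 3 were higher and 6 lower. With averaged duplicates 0 of the 38 passed and 6 had an unadjusted p under 0.05. Over all genes tested 13.3% passed, 33.0% with the replicate block and 5.81% with averaged duplicates, where 29.4% had an unadjusted p under 0.05. The gene that rose was Pih1d1, a subunit of the R2TP co-chaperone of HSP90, with rlog values of 8.40, 8.23, 8.48 and 8.45 in SLIT2 libraries, against 8.05, 7.92, 7.91 and 8.05 in vehicle libraries. Its groups did not overlap, and the difference was 0.41 (SE 0.075, limma adjusted p = 0.00948; 0.0803 with averaged duplicates). Of the 15 genes of the cytosolic chaperonin TRiC and its partner prefoldin, 0 passed in the limma fit, 0 had an unadjusted p under 0.05 and 1 passed with the replicate block. The matching shares over all genes tested were 13.3%, 26.3% and 33.0%. The smallest p among the 15 genes was that of Cct5, with a difference of 0.085 (adjusted p = 0.213).

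Chaperones of the endoplasmic reticulum gave other values. Of 16 such genes outside the set described here, 11 rose and 0 fell, with a median difference of 0.36, against a median of 0.00 for the set. The list and the set were chosen with earlier results of these data known, so this contrast is not an independent test. With the replicate block 15 of the 16 passed, all higher, and with averaged duplicates 1 passed, Dnajc3 (adjusted p = 0.0436). Over all genes tested 6.76% were called higher and 6.58% lower, 33.0% passed with the replicate block and 5.81% with averaged duplicates. The genes with the widest called differences were Manf (0.49, SE 0.061, limma adjusted p = 0.0014), Pdia4 (0.47, SE 0.12, limma adjusted p = 0.0371) and Dnajc3 (0.46, SE 0.088, limma adjusted p = 0.0114). With averaged duplicates Manf stood at 0.0796 and Pdia4 at 0.118, and Pdia4 also lost its call without any 1 of the SLIT2 replicates or vehicle replicate 3 or 4 (0.0254 to 0.0948 over the 8 cases). For replicates 3 and 4 alone the median of the 16 was 0.50, against 0.22 for replicates 1 and 2 alone. Of the 16, 11 passed the limma interaction test between the sets, against 4.40% of all genes tested. Of the 4 genes that the rule left out, Hspa5, Dnajb11 and Dnajc3 rose and Dnajb9 did not pass (adjusted p = 0.0853). The 8 chaperone genes of the set whose proteins also lie in the endoplasmic reticulum gave the following counts: 0 of 8 passed in the limma fit, 0 had an unadjusted p under 0.05, and their median difference was 0.02. With the replicate block 2 of the 8 passed. For 8 genes these counts lie near the shares over all genes tested (13.3% adjusted, 26.3% unadjusted and 33.0% with the block). Hspa13, a distant HSP70, averaged 10.68 ± 0.11 in SLIT2 libraries and 10.54 ± 0.14 in vehicle libraries (SD, n = 4 each; difference 0.14, adjusted p = 0.341). Dnajb14, a membrane J protein, averaged 12.79 ± 0.12 in SLIT2 libraries and 12.96 ± 0.11 in vehicle libraries (SD, n = 4 each; difference -0.17, adjusted p = 0.197).

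**Figure D5:**
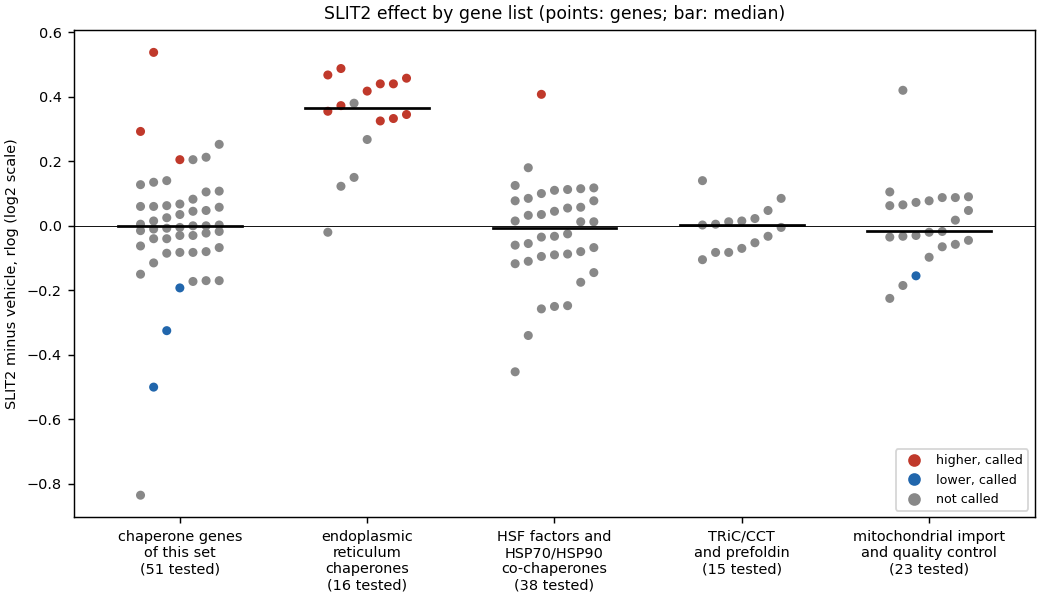
SLIT2 minus vehicle difference in rlog units (log2 scale) of each gene tested in the chaperone set and in 4 lists of related genes, with a bar at each list's median; red and blue mark genes called higher and lower. The 16 endoplasmic reticulum chaperones centre on 0.36, while the chaperone set and the other 3 lists centre near 0.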

How the data were processed

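RNA of 8 macrophage libraries was sequenced. Per the submitters' processing notes, the authors ran STAR, Salmon, DESeq2, Picard 2.23.8, SAMtools 1.7 and FastQC 0.11.9 on GRCm38 (mm10). Roles, settings and strand option were not stated in the sources used here. The values the authors deposited are rlog values on a log2 scale, to 2 decimals, for 41444 genes, without read counts, so depth is unknown.

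Genes with a mean of at least 4 entered limma 3.58.1 (R 4.3.3; mean-variance trend, two-sided, Benjamini-Hochberg over 11851 genes, threshold 0.05), with treatment as the only term. Interaction and replicate set terms were fitted to the same genes. Alternatives were 22 settings for the main comparison and 7 for the others. The steps were tested on simulated data.

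Members and lists were chosen with earlier results of these data known. Values in every library were given for called members, for 15 core chaperones and for members past the interaction test; up to 3 called genes were named per related list. Promoters were shown for Hspa1b and for called members with the most motif letters, and for Hspd1 after matches were counted. No protein sequences were used. Coordinates, lengths and overlaps came from GENCODE M21 (67 of 68 identifiers matched).

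The deviations of libraries 1, 2, 3 and 4 from their group means correlated between SLIT2 and vehicle at 0.637, 0.671, 0.753 and 0.587, so a replicate block was fitted as an alternative, and its calls are given where they differ; the p-values of the reported fit are unpaired. Libraries of a set with different numbers correlated alike (0.601 to 0.722), so the block stands for the replicate set more than for the number: replicate 1 minus replicate 2 correlated between SLIT2 and vehicle at -0.042, and replicate 3 minus replicate 4 at 0.088.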

Additional observations from a re-analysis of the deposited data

Results flagged for a closer look

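SLIT2 replicate 1 had the lowest Hspa9 value, at 13.03, well away from the other 3 SLIT2 libraries, which lay between 13.10 and 13.11. The gap was 0.875 of the range of the group, above the 95% limit of Dixon's test for 4 samples. It was the only such case among 40 groups of named genes, where chance marks about 1 in 20.

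Dnajc13 rose more in replicates 3 and 4 than in replicates 1 and 2. The SLIT2 minus vehicle difference came to 0.44 for replicates 3 and 4, against 0.145 for replicates 1 and 2, a gap of 0.295 (limma interaction test, adjusted p = 0.0282).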

How the results depend on the processing

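The count of 6 called chaperone genes became 13 with the replicate block, 15 with the replicate set as a block, 10 in replicates 1 and 2 alone, 10 in replicates 3 and 4 alone, 3 with no filter on low values, 1 (Dnajb5) when a difference above 0.2 was required, 0 with averaged duplicates, and 3 to 5 with 1 library left out. The matching counts over all genes, 1581 in the fit reported, were 3912 (replicate block), 4652 (replicate set as a block), 3962 (replicates 1 and 2 alone), 2880 (replicates 3 and 4 alone), 507 (difference above 0.2), 688 (averaged duplicates) and 1021 to 1254 with 1 library left out. With the replicate block all 6 calls were kept, and Hsp90aa1, Hspd1 and Cct5 were gained among the named genes. Without a filter the calls of Hspa14, Hsp90ab1 and Dnajc13 were lost. No matching count over all genes is given for that setting, so this loss cannot be set beside the background. The interaction test passed 294 genes with no filter and 116 with no mean-variance trend, against 521, and 0 chaperone genes in both cases, against 1. Set differences over all genes split into 3059 higher and 3701 lower, 3841 and 2979 under quantile normalization, and 3737 and 3158 under median centring.

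Some uncalled differences changed sign. In replicates 3 and 4 alone Hspa1b was at 0.035 and Hsph1 at 0.29; in replicates 1 and 2 alone Hspe1 was at 0.045, Dnajb6 at 0.02 and Hsf1 at 0.23. With 1 library left out, Hspa1b ranged from -0.14 to 0.034, Hsph1 from -0.42 to 0.0825, Hspe1 from -0.10 to 0.081, Dnajc5 from -0.077 to 0.0425 and Hsf1 from -0.33 to 0.12. The set difference of Dnajc27 was 0.012 under quantile normalization and 0.028 under median centring, and that of Dnaja1 was 0.036 under quantile normalization. The cause was not tested. Without read counts, precision at low values cannot be judged.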
